A study of Mus musculus with 8 samples.

Results

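The SMARC genes encode chromatin remodelers, enzymes and enzyme partners that use ATP to move or reshape DNA-bound proteins. The 10 described here are Smarcal1, Smarca2, Smarca4, Smarca5, Smarcb1, Smarcc1, Smarcc2, Smarcd1, Smarcd2 and Smarce1, taken by symbol out of 57180 genes in the deposited table. All 10 were among the 14755 genes that passed the filter on low counts. The set was chosen by the counts of Smarcal1, which was nearly absent from the KO libraries, so its KO and WT values are given as a description and without a test.

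The libraries came from mouse regulatory T (Treg) cells, CD4 T cells that restrain immune responses, isolated from mice by fluorescence-activated sorting. By their titles, 5 libraries belong to a chimera WT group and 3 to a chimera KO group, called WT 1 to WT 5 and KO 1 to KO 3 here. The labels give neither the deleted gene nor the strain, the age of the mice, or how the chimeras were made, so no targeted gene could be used to check the labels. The series title concerns copper control of suppression by Treg cells. Each library was made from 10 ng of total RNA with a full-length kit for low input that does not mark strand, and the values are estimated counts per gene. Whether each library came from a separate animal is not stated, and the p-values therefore refer to variation among the 8 libraries, which may be technical.

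Library totals were 10.5 to 18.0 M counts (M for mega) in the WT group and 4.31 to 8.48 M in the KO group. Genes with at least 10 counts numbered 8201 in WT 4 and 9422 in WT 5, against 12398 to 14245 in the other 6 libraries. The Treg markers Foxp3, Il2ra, Ikzf2, Ctla4 and Tnfrsf18 were above 0 in every library. Their summed level was 2186 to 6011 normalised CPM in the WT and 635 to 2562 in the KO libraries, where normalised CPM means counts per M after scaling to a common library size by edgeR's TMM factors. Markers of other cells differed by library: 6 B cell genes summed to 3137 normalised CPM in WT 4 against 199 to 554 in the other WT libraries and 78.4 to 194 in the KO libraries. Genes of CD8 T and NK cells summed to 4140 in WT 4 against 4.49 to 122 elsewhere, with Cd8a, Ncr1 and Klrb1c at 0 in that library, and 6 erythroid genes summed to 9102 in WT 5 against at most 22.2 elsewhere, with Alas2 at 0 in WT 5. In bulk RNA of this kind, fewer cells of a type and less RNA per cell cannot be told apart.

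SMARC proteins work in several machines. SMARCA4 and SMARCA2 are alternative ATPases of the SWI/SNF (BAF) complexes, which slide and evict nucleosomes at promoters and enhancers; SMARCB1, SMARCC1, SMARCC2, SMARCD1, SMARCD2 and SMARCE1 are subunits built around them. SMARCA5 is the ATPase of the ISWI complexes, which space nucleosomes. SMARCAL1 belongs to the same ATPase superfamily but is an annealing helicase: it binds RPA at stalled replication forks and rewinds single-stranded DNA, and its loss causes Schimke immuno-osseous dysplasia, a human disorder that includes T cell deficiency.

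Smarcal1 (ENSMUSG00000039354) lies on the plus strand of mouse chromosome 1, from 72583251 to 72633134 of GRCm38 in GENCODE M21, and overlaps no exon of another gene there. None of the 5819 stretches of 50 bases in its annotated transcripts recurred in a transcript of another gene, so its counts share no such sequence with a paralog or pseudogene. Its promoter is shown because it is the start of the transcript that separated the groups. The sequence runs from 250 bases before to 50 bases after the RefSeq start site, chr1:72583001-72583300 on the plus strand of GRCm38.p6. Capitals mark matches to CTACANNNCCC, searched on both strands; the letters resemble part of the binding motif of the factor ZNF143, and the motif was chosen after the sequence was read.
Smarcal1 promoter: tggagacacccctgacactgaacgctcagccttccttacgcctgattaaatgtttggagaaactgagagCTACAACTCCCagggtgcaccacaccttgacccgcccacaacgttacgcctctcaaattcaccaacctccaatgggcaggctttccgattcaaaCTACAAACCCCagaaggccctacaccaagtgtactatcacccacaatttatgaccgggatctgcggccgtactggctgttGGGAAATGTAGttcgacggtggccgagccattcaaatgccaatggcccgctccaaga

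The promoter of Smarcal1 held 3 copies of this motif, CTACAACTCCC and CTACAAACCCC on the plus strand and GGGAAATGTAG, its reverse complement, across the start site. Of 32817 RefSeq promoters of the same length, 2.75% held at least 1 copy and 8 held at least 3. Promoters of 9 of the 10 SMARC genes were in the RefSeq table, and the other 8 held 0 copies. Of the genes with at least 3 copies, 6 were tested, Smarcal1 included. The motif was written from the Smarcal1 promoter, so its 3 copies there were fixed in advance. Smarcal1 was picked for its KO and WT values, and whether the motif relates to them was not tested. The Smarcal1 promoter also had fewer CpG dinucleotides, 13, than those of Smarca2, Smarca4, Smarca5, Smarcb1, Smarcc1, Smarcc2 and Smarcd1, which had 27 to 48. That of Smarcd2 had 4, and the median over all promoters was 7. The promoters used for Smarcc1 and Smarcd2 lay inside the spans that GENCODE M21 gives these genes, so their start sites were internal ones. These letters describe the sequence and say nothing of binding or methylation, which were not measured.

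Smarcal1 was detected well in every WT library and hardly at all in any KO library. Its counts were 357, 167, 367, 277 and 821 in WT 1 to WT 5 and 4, 1 and 0 in KO 1 to KO 3. The groups did not overlap: the lowest WT library held 14.5 normalised CPM and the highest KO library 0.35. As mean and SD, Smarcal1 had 45.7 ± 39.5 normalised CPM in the WT (n = 5) and 0.17 ± 0.18 in the KO libraries (n = 3). The WT mean was raised by WT 5, at 115, where the erythroid genes were also highest, whose part was not tested; WT 1 to WT 4 held 14.5 to 38.9.

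**Figure D1:**
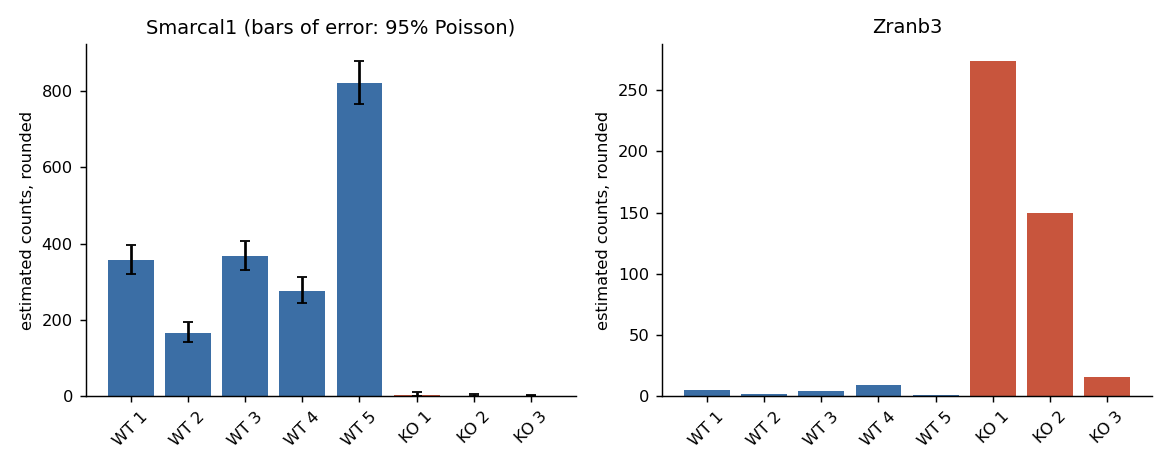
Estimated counts, rounded, in the 5 WT libraries (blue) and 3 KO libraries (red) for Smarcal1 (left, with 95% Poisson intervals) and for the fork helicase gene Zranb3 (right). Smarcal1 had 167 to 821 counts in the WT and 0 to 4 in the KO libraries. Zranb3 had 1 to 9 in the WT and 16 to 274 in the KO libraries. Smarcal1 was picked for its values, and Zranb3 was named after its values were seen and passed the filter through the KO libraries. The panels therefore only describe them.

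The KO libraries were also shallower than the WT libraries. The lowest WT rate, 15.4 counts per M, corresponds to 131, 70.4 and 66.5 Smarcal1 counts at the totals of KO 1, KO 2 and KO 3. The part of depth in the low KO counts was not tested. Summed over libraries, Smarcal1 had 5 counts in 17.4 M (exact 95% Poisson interval 1.62 to 11.7 counts) in the KO group and 1989 counts in 60.9 M in the WT group. The rate was 113 times higher in the WT group, and 48.6 times higher with the KO count at its upper bound. These intervals cover counting error only and describe values for which the gene was picked. With 3 counts taken as the limit that a count of 0 allows, KO 3 held at most 0.695 per M, and the upper bound of its two-sided 95% Poisson interval was 3.69 counts. The fitted log2 change was −7.91 (SE 1.68), −7.03 without WT 4 and WT 5, and between −9.01 and −7.09 with each library left out in turn.

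Few genes that were steadily detected in the WT group were so low in the KO group. Smarcal1 was picked for this pattern, so the count below describes the data and is no support for a loss. Of 3019 genes with at least 100 counts in every WT library, 2 had at most 5 counts in every KO library, which is 0.0662%. They were Smarcal1 and Smad5, which encodes a transcription factor of BMP signalling and was singled out after its values were seen. Smad5 had 212, 308, 247, 2061 and 1263 counts in WT 1 to WT 5 and 0, 2 and 3 in KO 1 to KO 3. In single KO libraries such values were more common: 0.232% of the 3019 genes had at most 5 counts in KO 1, 1.62% in KO 2 and 3.71% in KO 3. In the other direction, 3747 genes had at least 100 counts in every KO library. Of these, 2 had at most 5 counts in every WT library.

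For all 3 other tested genes within 500 kb of Smarcal1 on chromosome 1, KO and WT libraries overlapped. Ankar, the closest protein-coding gene at 9.85 kb and below the filter, had 2, 1, 2, 0 and 0 counts in WT 1 to WT 5 and 7, 7 and 13 in KO 1 to KO 3, with every KO library above every WT library; it was named after its values were seen. The nearest tested genes were the pseudogene Gm15843, 123 kb upstream, with 1 to 68 counts in the WT and 6 to 28 in the KO libraries, and Rpl37a, 78.2 kb downstream, a ribosomal protein gene with 5319 to 41041 counts in the WT and 3804 to 5716 in the KO libraries. Xrcc5, 188 kb upstream, encodes a subunit of the Ku DNA repair complex and was singled out after its values were seen. It had 112, 0, 0, 2852 and 2781 counts in WT 1 to WT 5 and 78, 0 and 0 in KO 1 to KO 3.

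The tested protein-coding genes whose pattern was most like that of Smarcal1 over the 8 libraries were Helz, Tnfrsf9, Cblb, Ssb and Ubl3. Their Pearson correlations of log2 normalised CPM with Smarcal1 were 0.98, 0.97, 0.97, 0.97 and 0.96, and 71 of 10453 genes reached 0.9. The 8 points share library and depth, and both groups are pooled in them. Smarcal1 was picked for its split between the groups. Genes ranked by this correlation are therefore lower in the KO libraries by construction, and the values below only describe them. None of the 5 was near absent in the KO libraries. Helz, an RNA helicase gene, had 81.3 ± 20.1 normalised CPM in the WT and 29.9 ± 4.5 in the KO libraries (n = 5 and 3). Cblb, a ubiquitin ligase gene that restrains T cell activation, had 199 ± 47.0 and 39.6 ± 15.7, and Tnfrsf9, a costimulatory receptor gene, 111 ± 63.1 and 8.74 ± 2.29. Among the SMARC genes the highest such value was 0.85, for Smarcc2, and the lowest was −0.62, for Smarcc1.

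The other 9 SMARC genes differed from Smarcal1 in that KO and WT libraries overlapped for each of them. Over all 14755 tested genes, 4.49% had every KO library below every WT library, 13.2% had every KO library above, and 17.7% fell in either class. edgeR's quasi-likelihood test with Benjamini-Hochberg adjustment over all tested genes called 0 of the 9, against 0% of all genes; 1 of the 9, Smarcc2, had an unadjusted p under 0.05, against 14.4% of all genes, and 6.43% of all genes had one with the lower level in KO, as Smarcc2 did. DESeq2 called the same 1 of 9, against 18.3% of the genes it gave an adjusted p. Their median log2 change was −0.84, beside −0.42 over all tested genes and −0.86 over tested protein-coding genes. Log2 changes were positive for 4 of the 9 and for 33.5% of tested protein-coding genes.

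**Figure D2:**
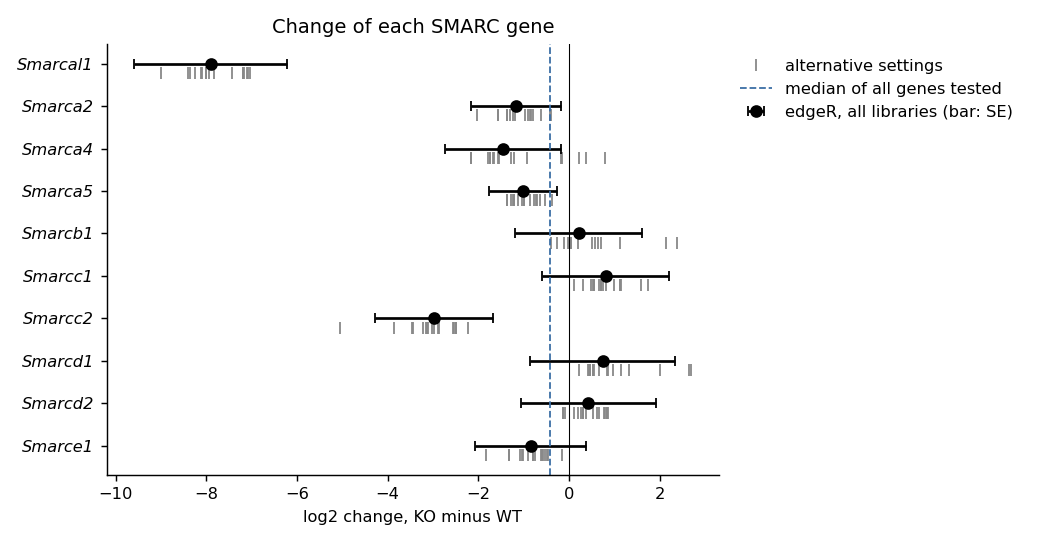
Log2 change of each SMARC gene, KO minus WT, from edgeR with all libraries (black points, bars are the SE) and under each alternative setting (grey ticks); the dashed line is the median of all tested genes, −0.42. Smarcal1 sits at −7.91, Smarcc2 at −2.98 and the other 8 genes between −1.45 and 0.81.

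Among the ATPases, Smarca5 was the most steadily detected. Its normalised CPM was 49.9, 196, 126, 84.8 and 147 in WT 1 to WT 5 and 69.8, 78.8 and 30.4 in KO 1 to KO 3. The log2 change was −1.02 (SE 0.75, adjusted p = 0.483 in edgeR), with KO 1 and KO 2 inside the WT range and KO 3 below it. Smarca5 counts carry a limit, since 28.2% of the 50-base stretches of its transcripts recur in other genes, foremost the predicted genes Gm13135, Gm13034 and Gm13136, which had at most 106 counts in a library.

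Smarca4, which encodes the ATPase BRG1, depended on single libraries. It stood at 44.1, 24.5, 2.61, 248 and 47.1 normalised CPM in WT 1 to WT 5 and at 34.5, 29.6 and 16.3 in KO 1 to KO 3. On this scale WT 4 was far above and WT 3 far below all others, and the KO libraries lay between. The TMM factor of WT 4 was the lowest, 0.40 against 0.69 to 1.49 elsewhere, which raises its normalised CPM. As transcripts per M, Smarca4 stood at 17.7 in WT 4, 13.6 in WT 1 and 12.9 in KO 1. The log2 change was −1.45 (SE 1.28, adjusted p = 0.548 in edgeR), and −0.18 with library totals alone. It was −0.14 without WT 4 and 0.21 without WT 4 and WT 5. WT 4 was also the library with the highest B, CD8 T and NK cell genes, whose part in the Smarca4 level was not tested. Smarca2, which encodes the alternative ATPase BRM, had 26.3, 60.0, 70.9, 31.5 and 199 normalised CPM in WT 1 to WT 5 and 63.9, 23.2 and 16.6 in KO 1 to KO 3. KO 2 and KO 3 lay below all WT libraries and KO 1 lay among them (log2 change −1.16, SE 0.99, adjusted p = 0.534 in edgeR). Without WT 5 the change was −0.41.

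The paired scaffold subunits Smarcc1 (BAF155) and Smarcc2 (BAF170) had log2 changes of opposite sign, neither of them called by edgeR. Smarcc2 had 32.7, 69.2, 15.1, 56.9 and 106 normalised CPM in WT 1 to WT 5 and 17.7, 1.2 and 2.33 in KO 1 to KO 3. KO 2 and KO 3 held 8 and 13 counts, below every WT library, while KO 1 exceeded WT 3. The log2 change of −2.98 (SE 1.29) had an unadjusted p of 0.0444 and an adjusted p of 0.338 in edgeR, and an adjusted p of 0.0132 in DESeq2. Without KO 1 it was −5.06, with an adjusted p of 0.291 in edgeR. Smarcc1 had 37.8, 57.8, 10.8, 0.42 and 1.26 normalised CPM in WT 1 to WT 5 and 36.8, 26.9 and 50.1 in KO 1 to KO 3. WT 4 and WT 5 held 3 and 9 counts, and the KO libraries lay within the range of the other 3 WT libraries (log2 change 0.81, SE 1.40, adjusted p = 0.759 in edgeR).

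The remaining subunits each had 1 or more WT libraries far from the rest. Smarcb1, the core subunit whose loss drives rhabdoid tumours, had 86.9 normalised CPM in WT 3 and 0.7 to 7.97 in the other WT libraries. Its KO libraries held 24.1, 39.5 and 13.1, above 4 of the 5 WT libraries (log2 change 0.21, SE 1.39, adjusted p = 0.944 in edgeR). Without WT 3 its log2 change was the highest of those with a library left out, 2.14. Smarcd1 and Smarcd2, which encode BAF60A and BAF60B, are alternative subunits that contact transcription factors. Smarcd1 had 30.95, 3.38, 0.08, 12.1 and 0.14 normalised CPM in WT 1 to WT 5, with 1 count in each of WT 3 and WT 5, and 9.1, 24.8 and 13.1 in KO 1 to KO 3. Smarcd2 had 49.0, 12.5, 45.5, 0 and 13.3 in WT 1 to WT 5 and 25.3, 52.2 and 19.5 in KO 1 to KO 3. Smarce1, a DNA-binding HMG-box subunit, had 76.5, 99.3, 17.0, 115 and 2.23 in WT 1 to WT 5 and 67.0, 16.9 and 19.9 in KO 1 to KO 3. The log2 changes were 0.75 for Smarcd1, 0.43 for Smarcd2 and −0.84 for Smarce1, with adjusted p of 0.808, 0.888 and 0.712 in edgeR. For Smarce1, 15.0% of the 50-base stretches of its transcripts recur elsewhere, among other genes in the pseudogene Smarce1-ps1, which limits its counts in the same way as for Smarca5.

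**Figure D3:**
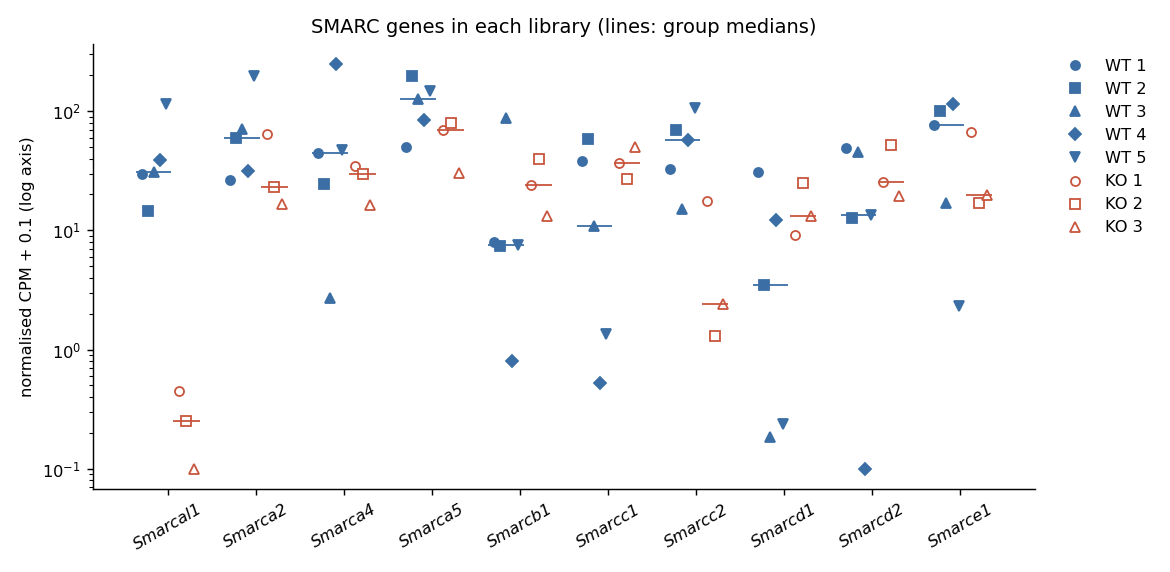
Normalised CPM plus 0.1, on a log axis, of the 10 SMARC genes in the WT (filled blue) and KO libraries (open red), with a symbol for each library and lines at the group medians. The groups separate for Smarcal1 alone of the 10, and single WT libraries fall below 1 normalised CPM for Smarcb1, Smarcc1, Smarcd1 and Smarcd2.

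Low values in single libraries were common among these genes and among genes of like level. Of the 80 values of the 10 genes, 10 were at most 10 counts, 3 of them Smarcal1 in the KO libraries, and the other 7 fell on Smarcb1, Smarcc1, Smarcd1, Smarcd2 and Smarcc2. WT 4 held 3 of these 7 and WT 5 held 2. Over the 5296 tested protein-coding genes with mean normalised CPM in the same range, 11.7 to 97.8, 17.2% of values were at most 10 counts, from 6.68% in KO 1 to 33.3% in WT 4. The coefficient of variation over the WT libraries had a median of 90.8% for the 10 genes and 107% for that range of genes. What set Smarcal1 apart from the other 9 was that its low values fell on all KO libraries and on no WT library, the pattern for which it was picked.

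On a scale that allows comparison between genes (TPM, transcripts per M, from the deposited counts and gene lengths), the mean levels over all 8 libraries were 28.7 for Smarce1, 27.1 for Smarcb1, 26.4 for Smarca5, 19.7 for Smarcd2 and 15.7 for Smarca2. They were 12.5 for Smarcc2, 11.2 for Smarcal1, 10.1 for Smarcc1, 9.48 for Smarca4 and 6.82 for Smarcd1. Each gap between neighbours in that order was smaller than the SD over the 8 libraries of either neighbour, and these SDs ran from 5.36 to 30.5 TPM. Smarcal1 ranked between 1 and 6 of the 10 by TPM in the WT libraries, at the top in WT 5 (36.9 TPM), and last in each KO library. The 9 other genes together held 52.9 to 233 TPM in the WT and 95.1 to 210 in the KO libraries, so their summed level overlapped between the groups.

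Ratios of 2 SMARC genes within a library do not depend on scaling between libraries, and 4 were compared. Smarca4 and Smarca5, in 1 of them, encode ATPases of different complexes. The log2 ratio of length-scaled counts (pseudocount 1) of Smarcc1 over Smarcc2 was −0.29, −0.76, −0.98, −7.30 and −6.75 in WT 1 to WT 5 and 0.55, 3.83 and 3.82 in KO 1 to KO 3. Smarcc2 was thus the more abundant of the pair in 5 of 5 WT libraries and Smarcc1 in 3 of 3 KO libraries, with no overlap. The means were −3.22 ± 3.49 and 2.73 ± 1.89, and the difference of 5.95 had an exact two-sided permutation p of 0.0714, or 0.286 adjusted over the 4 ratios, where the smallest p that 56 splits allow is 0.0179. Without WT 4 and WT 5 the difference was 3.41, and without WT 4 alone or WT 5 alone it had an adjusted exact p of 0.114.

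The other 3 ratios showed no such separation. Smarca2 over Smarca4 was 1.0 ± 2.91 in the WT and 0.31 ± 0.64 in the KO libraries, a difference of −0.69 (exact permutation p = 0.679, adjusted 0.875). Smarcd1 over Smarcd2 differed by 0.91 (exact permutation p = 0.875) and Smarca4 over Smarca5 by 0.66 (exact permutation p = 0.696). All 3 KO libraries had less Smarca4 than Smarca5 per length, as did 4 of the 5 WT libraries, and all 3 had less Smarcd1 than Smarcd2, again as in 4 of 5 WT libraries. The SD of these 3 log2 ratios was 2.71 to 5.54 over the WT libraries and 0.27 to 0.64 over the KO libraries. Without WT 3 each of the 3 differences changed sign, to 0.28, −0.62 and −0.29.

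**Figure D4:**
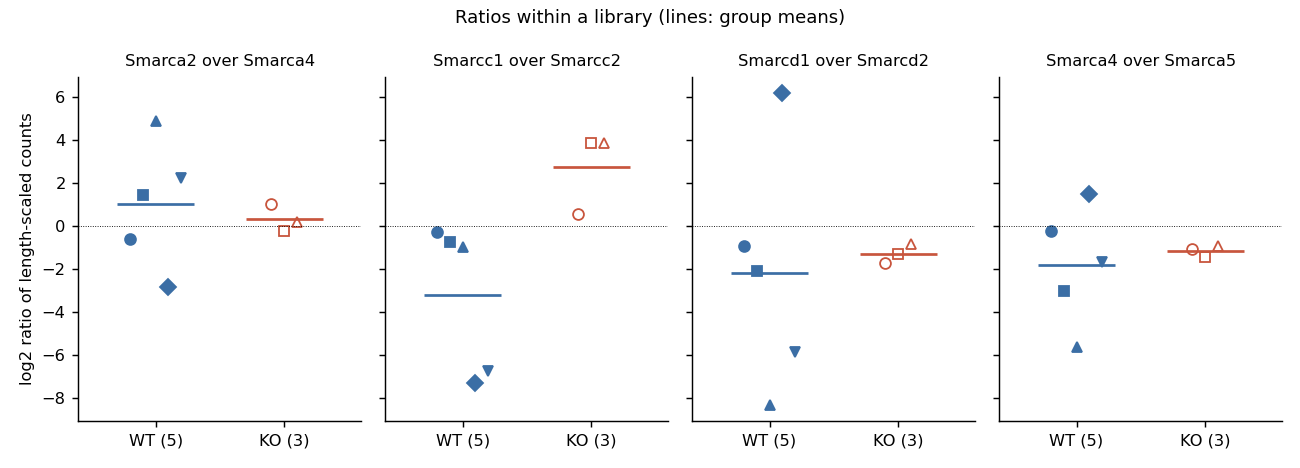
Log2 ratio of length-scaled counts of 2 SMARC genes within each library, with lines at the group means and the same symbols for libraries as in the plot of normalised CPM. For Smarcc1 over Smarcc2 the 5 WT libraries lie below 0 and the 3 KO libraries above it; the other ratios overlap.

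The wider machinery was read from 4 lists of partner genes. Of 22 other BAF subunits, 18 were tested, 16 with negative and 2 with positive log2 changes (median −0.89). By edgeR 0 passed and 1 of 18 had an unadjusted p under 0.05, beside 14.4% of all tested genes, while DESeq2 called 4, beside 18.3%. The most abundant per length were Bcl11b, a T cell transcription factor that joins BAF, with 292 to 755 normalised CPM in the WT and 143 to 370 in the KO libraries, Arid1a, the DNA-binding subunit of canonical BAF, with 153 to 468 and 61.2 to 362, and Ss18, with 16.3 to 411 and 12.3 to 93.0. Brd9, a bromodomain subunit of non-canonical BAF named after its values were seen, was the 1 gene of the 18 whose groups did not overlap (17.7% of all tested genes), at 46.8 to 213 in the WT and 18.4 to 35.1 in the KO libraries.

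Of 12 ISWI partners, 11 were tested, 10 with negative and 1 with a positive log2 change (median −1.23), and by edgeR 0 passed and 3 of 11 had an unadjusted p under 0.05 (14.4% of all tested genes), while DESeq2 called 2 (18.3%). Smarca1, the other ISWI ATPase, was below the filter with at most 3 counts in a library, so Smarca5 was the ISWI ATPase detected here. Baz1a, which pairs with Smarca5 in the ACF complex, had 245, 140, 208, 357 and 224 normalised CPM in WT 1 to WT 5 and 86.2, 38.3 and 14.1 in KO 1 to KO 3. Every KO library lay below every WT library, and the log2 change was −2.35 (SE 0.77, adjusted p = 0.325 in edgeR and 0.00342 in DESeq2). Baz1a was the 1 gene of the 11 whose groups did not overlap. Over all tested genes, 4.49% had KO below WT in this way and 17.7% did not overlap in either direction. The other abundant partners overlapped between the groups, with Chrac1, a histone-fold subunit, at 38.2 to 629 in the WT and 28.3 to 89.5 in the KO libraries and Rbbp7, a histone-binding subunit, at 46.3 to 225 and 44.6 to 121.

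Another list held RPA and the enzymes of stalled forks, the setting in which SMARCAL1 acts. Of 16 genes found, 15 were tested, 11 with negative and 4 with positive log2 changes (median −0.90), and by edgeR 0 passed and 2 of 15 had an unadjusted p under 0.05 (14.4% of all tested genes), while DESeq2 called 3 (18.3%). Both counts were near the shares over all genes. The 2 were Zranb3 and Recql, named after their values were seen. Zranb3, an annealing helicase gene closely related to Smarcal1, had 5, 2, 4, 9 and 1 counts in WT 1 to WT 5 and 274, 150 and 16 in KO 1 to KO 3. That is 0.47 ± 0.46 normalised CPM in the WT and 16.4 ± 11.8 in the KO libraries (n = 5 and 3), with every KO library above every WT library. The groups did not overlap in this way for 2 of the 15, Zranb3 and Recql, near the 13.2% of all tested genes with KO above WT. The fitted log2 change was 5.11 (SE 1.22). Zranb3 had fewer than 10 counts in every WT library and passed the filter through the KO libraries where it was high, so its values are a description. It is among the 2 of 15 and the 3 called by DESeq2, where it is no support for a change. The predicted gene Gm28800 overlaps 706 of the 9079 exonic bases of Zranb3, where reads without strand cannot be told apart; Gm28800 itself was given at most 1 count in a library.

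Recql, another helicase gene, had 12.1 to 31.4 normalised CPM in the WT and 56.2 to 137 in the KO libraries (log2 change 1.95, SE 0.77, adjusted p = 0.325 in edgeR and 0.0134 in DESeq2). It overlaps exons of Pyroxd1 on the opposite strand over 2895 of its 7688 exonic bases, where reads cannot be assigned, and Pyroxd1 itself had 0 to 485 counts in the WT and 10 to 795 in the KO libraries. Genes of the RPA complex that recruits SMARCAL1 overlapped between the groups, with Rpa3 at 41.4 to 658 in the WT and 85.9 to 95.9 in the KO libraries and Rpa1 at 27.4 to 257 and 9.31 to 68.6. Hltf, another fork remodeler gene, also overlapped, at 6.28 to 223 and 40.4 to 75.0, as did Tipin, of the fork protection complex, at 1.33 to 449 and 4.12 to 40.1.

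Of 22 other SNF2-family ATPases, all 22 were tested, 16 with negative and 6 with positive log2 changes (median −0.95), and by edgeR 0 passed and 0 had an unadjusted p under 0.05 (14.4% of all tested genes), while DESeq2 called 1 (18.3%). The groups did not overlap for 4, Chd2 and Shprh with KO below WT and Chd8 and Rad54l with KO above WT. That is 4 of 22, beside 17.7% of all tested genes. Chd8, a chromodomain remodeler gene, had 102 to 266 normalised CPM in the WT and 266.4 to 316 in the KO libraries (log2 change 0.84, SE 0.54, adjusted p = 0.439 in edgeR). Atrx, the most abundant per length, had 394 to 849 normalised CPM in the WT and 508, 214 and 20.4 in KO 1 to KO 3, and Chd3 had 147 to 308 and 100.3 to 198. Smarcad1, the SMARC gene of this list, had 57.1 ± 38.4 in the WT and 79.2 ± 66.1 in the KO libraries (log2 change 0.47, SE 1.02, adjusted p = 0.81 in edgeR). The medians of all 4 lists, −1.23 to −0.89, stood beside −0.86 for tested protein-coding genes. With library totals alone the median of all tested genes was 0.21, so the sign of a small log2 change can depend on the scaling. The 9 SMARC genes other than Smarcal1 kept their signs in that setting, with 5 negative.

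**Figure D5:**
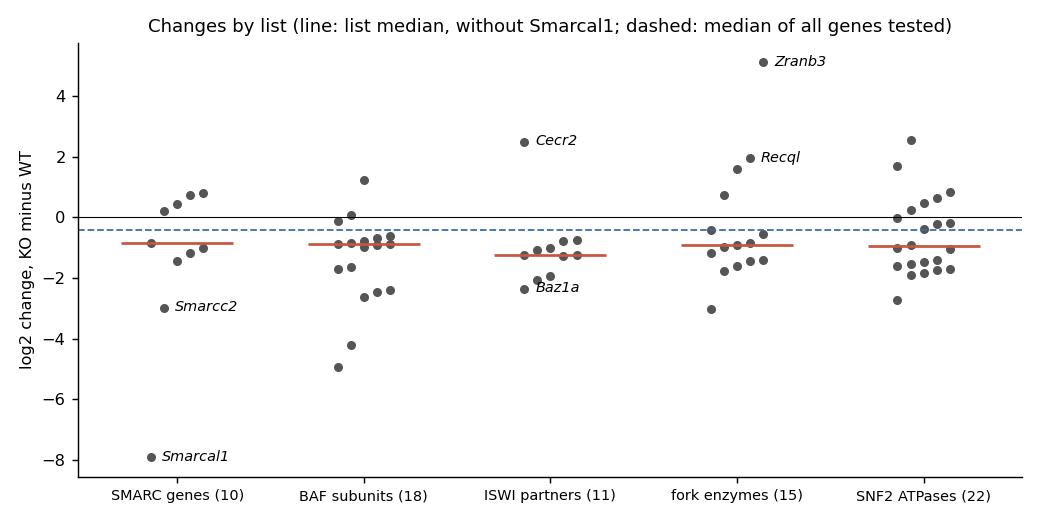
Log2 changes, KO minus WT, of the tested genes in each list; red lines are list medians (for the SMARC genes without Smarcal1) and the dashed line is the median of all tested genes, −0.42. Smarcal1 at −7.91 is the lowest point and Zranb3 at 5.11 the highest.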

How the data were processed

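RNA sequencing of 8 mouse Treg libraries (5 chimera WT, 3 chimera KO, grouped by sample title) was analysed from the authors' deposited table of expected counts, estimates of reads per gene, 20.3% of which were not whole. RSEM, HISAT2, StringTie, DESeq2, fastp and mm10 are listed, per the submitters' processing notes, with neither role nor version. Which annotation was used is not stated there. The authors' 2 group means were not used, and 0 columns of other samples were present. The deposited table also gives gene length in bases.

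Counts were rounded. The two-sided quasi-likelihood test of edgeR 4.0.16 (R 4.3.3), after TMM scaling and a filterByExpr minimum of 10, took all 8 libraries without covariates; an adjusted p under 0.05 was a call, and the SE is the log2 change over the square root of F. Totals of 4.31 to 18.0 M set the precision, and no pair of libraries of a group agreed within sampling noise (chi-square per degree of freedom at least 58.3). Within-library ratios used exact permutation. DESeq2 1.42.0 and limma 3.58.1 were among the alternatives; added after seeing the data was a fit without WT 2 and WT 3, whose library names start with FY. The procedure was tested on simulated data. Coordinates and overlaps came from GENCODE M21 and promoters from RefSeq GRCm38.p6. Figures used matplotlib 3.10.9.

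Named were the 10 members, per list the 3 most abundant genes per length and any call, the 5 genes most correlated with Smarcal1 and its nearest tested neighbours. Named outside this rule, with values in view, were Smad5, Xrcc5, Ankar, Zranb3, Recql, Hltf, Brd9, Chd2, Shprh, Rad54l, Smarca1, Smarcad1 and Rps3a3. Members and lists were chosen with earlier results of these data known. Of 17 symbols in the fork list 16 were found. The values of some marker genes are not reported here.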

Additional observations from a re-analysis of the deposited data

Results flagged for a closer look

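In the WT group, 4 of the 14 values examined (10 genes and 4 ratios) had a library whose gap to the nearest other, relative to the range of the 5, exceeded the 95% critical value of Dixon's test, 0.71. Chance flags about 1 in 20 for normally distributed values. The normalised CPM were not logged, so chance may flag more of them, and the 4 flags are no evidence of an excess. Smarcal1 stood at 115 normalised CPM in WT 5 against 14.5 to 38.9 in the other WT libraries, and Smarca2 at 199 in WT 5 against 26.3 to 70.9. Smarca4 stood at 248 in WT 4 against 2.61 to 47.1. Smarcb1 stood at 86.9 in WT 3 against 0.7 to 7.97.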

How the results depend on the processing

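The number of genes called over all genes, 0 in edgeR (2124 at an unadjusted p under 0.05), was 1 with library totals alone, without a filter and with counts thinned to the shallowest library, each time Rps3a3, and 22 with limma-voom and 2421 with DESeq2; it was 0 to 0 with each library left out. Library totals alone moved the median of all genes from −0.42 to 0.21. The median of the 9 SMARC genes other than Smarcal1 was 0.38 with limma-voom and −1.20 to −0.14 with each library left out. Smarcal1 stayed between −9.01 and −7.03 in all 17 settings, and no SMARC gene other than Smarcc2 in DESeq2 was called (Smarcal1 was not tested). Signs turned for Smarca4 (0.38 with limma-voom, 0.79 with the replicate block, 0.21 without WT 4 and 5), Smarcb1 (−0.0101 without a filter, −0.39 without WT 4 and 5, −0.26 to 2.14 with each library left out) and Smarcd2 (−0.13 with the block, −0.0890 without WT 4 and 5, −0.12 to 0.87 with each library left out); the cause was not tested. Leaving out each library gave ratio differences of −1.65 to 0.28 for Smarca2 over Smarca4, −0.62 to 3.01 for Smarcd1 over Smarcd2, −0.29 to 1.49 for Smarca4 over Smarca5 and 4.93 to 7.04 for Smarcc1 over Smarcc2. Replicate numbers are shared by the groups, but deviations of same-numbered libraries correlated at only 0.02, 0.02 and 0.05, and 1 of 3 KO libraries and WT 1 to WT 3, 3 of 3, correlated best with their own number. The replicate block gave 0 calls and turned no ratio.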
